A study of Mus musculus with 12 samples.

Results

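Natural regulatory T cells (nTregs) were compared with CD4 effector T cells that had shared a culture with them and had received no drug. The comparison uses 6 of the 12 arrays of the series, 3 of nTregs and 3 of CD4 cells, and takes in all 22180 genes that carry an unambiguous symbol on the array. The other 6 arrays hold the same populations after azacitidine (AzaC), a cytidine analogue that inhibits DNA methyltransferases. Per the growth protocol, the nTregs came from spleens of B6.Foxp3GFP mice, in which a green reporter marks cells that make Foxp3. The Treg-depleted T cells came from mice bred from B6.Foxp3GFP and B6.CAGDSRED, whose cells carry the red protein DsRed. The strain label, however, puts the transgene Tg(CAG-DsRed*MST)1Nagy/J, crossed in on B6.Cg, into every sample, so the labels disagree about the nTregs. Age and sex of the mice are not stated. The cells were mixed at 1 part nTregs to 10 parts effectors, stimulated through CD3 and CD28 on beads for 2 days in medium with interleukin-2 (500 U/mL), and kept for 2 more days with PBS. The arm of the series not compared here received 1 µM AzaC in place of PBS. nTregs were then sorted as CD4 positive, DsRed negative and reporter positive, and CD4 effectors as CD4 positive, DsRed positive and reporter negative. Population and mouse genotype therefore cannot be told apart, and Foxp3 itself is a gene of the gate. Whether the 3 samples of a group came from separate mice or cultures is not stated. The spread behind each p-value was pooled over all 12 arrays of the series, AzaC arrays included. It is the spread of such samples, perhaps technical only.

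Regulatory T cells are CD4 T cells that restrain other immune cells. The transcription factor Foxp3 holds their programme in place, with partners such as Ikzf2 (Helios). They act through inhibitory receptors such as Ctla4 and Tigit, through adenosine made by surface enzymes, through activation of latent TGF-beta on GARP, and through uptake of interleukin-2 by Il2ra, and they make little interleukin-2 or CD40 ligand of their own.

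The values are log2 signals. A gene was called when its difference passed a Benjamini-Hochberg adjusted p of 0.05 in limma over all 22180 genes, and a positive difference means a higher signal in nTregs. Among the 6 arrays, nTreg PBS 1 stood apart: its mean correlation with the other arrays of the series was 0.972. CD4 PBS 3 had 0.979, and the other 4 arrays had 0.986 to 0.987. The mean of 10 mitochondrially encoded RNAs was 12.63 on nTreg PBS 1 and 12.01 to 12.27 on the other 5, and the part of this in any result was not tested. Counts are therefore also given without that array. Arrays carry no 0: 1105 olfactory receptor genes, which T cells are not known to use, had a median of 4.47 to 4.69 per array and a 95th percentile of 6.79 to 7.10. Signals under 7.10 are treated as near background, and a difference against such a signal may understate the true size.

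The 4 marker genes differed in the directions their use as markers implies. Foxp3 read 7.79, 8.09 and 8.26 on the CD4 arrays and 11.98, 12.52 and 12.52 on the nTreg arrays, a description of the sort rather than a finding. Tigit, an inhibitory receptor for CD155, read 6.41, 5.84 and 6.47 on the CD4 arrays and 9.47, 10.05 and 9.71 on the nTreg arrays. Ikzf2 read 7.64, 7.60 and 7.42 against 9.52, 9.56 and 9.48. For all 3 genes every nTreg array was far above every CD4 array. Cd40lg, the ligand by which helper T cells signal to B cells and dendritic cells, ran the other way, with 10.31, 10.22 and 9.83 on the CD4 arrays and 8.56, 7.48 and 7.73 on the nTreg arrays. The differences were 4.29 (SE 0.16) for Foxp3, 3.51 (SE 0.18) for Tigit, 1.96 (SE 0.13) for Ikzf2 and −2.19 (SE 0.22) for Cd40lg, with adjusted p of 5.48e-08, 3.41e-07 and 2.09e-05 for the last 3.

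The populations differed at 1777 of 22180 genes (8.01%), of which 864 (3.9%) were higher and 913 (4.12%) lower in nTregs. A difference of at least 2-fold was met by 279 of them (1.26% of all genes), 180 higher and 99 lower. Large differences were therefore more often toward nTregs, while the calls as a whole were nearly balanced, with 48.6% higher. That balance rests on the scaling: with each array centred on its median, 583 were higher and 1415 lower, or 29.2% higher. The groups did not overlap at 26.7% of all genes, and at 1763 of the 1777 calls. Lack of overlap in a called gene, as given below, therefore adds little to its call. At an unadjusted p under 0.05 stood 5100 genes (23%). The median difference of all genes was 0.03 and the median SE 0.13. Without nTreg PBS 1, 1607 genes were called, of which 1289 were among the 1777. Leaving out CD4 PBS 2 gave 1100 and leaving out CD4 PBS 3 gave 1042 (565 of them higher). The lower calls were 579, 519 and 477 without CD4 PBS 1, 2 and 3. In all, 791 of the 1777 calls (44.5%) passed without each of the 6 arrays in turn. A fit to only the 6 PBS arrays called 648 genes. The plot of differences against signal shows all genes, with the leading ones named.

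**Figure D1:**
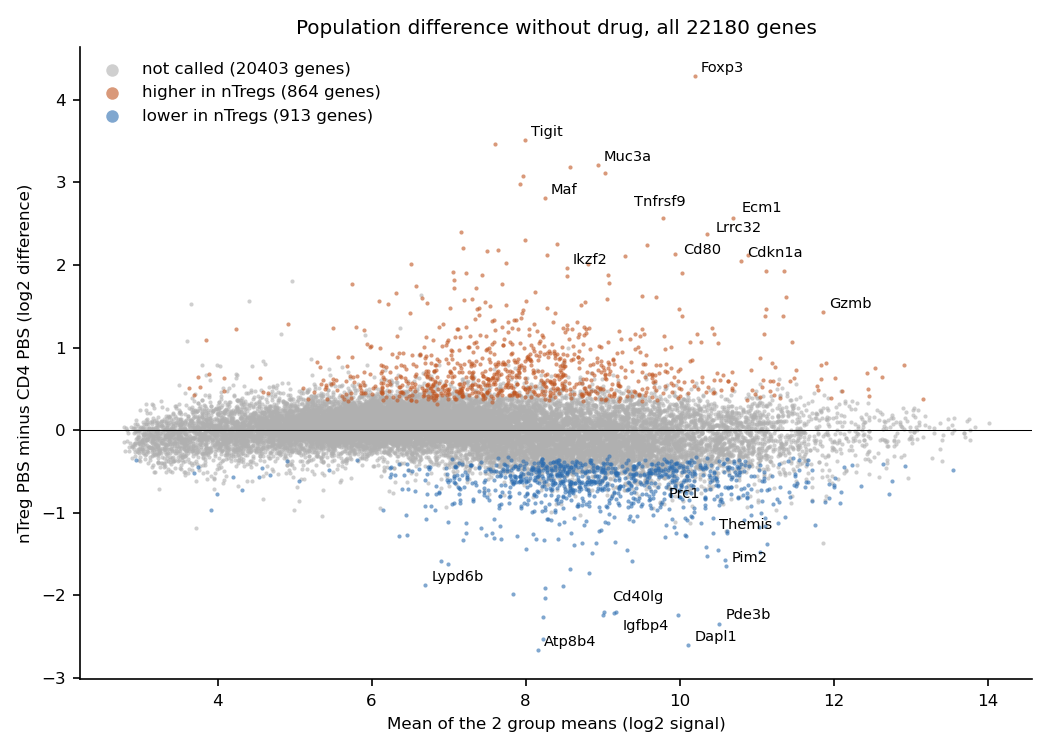
Each point is 1 of 22180 genes; the x axis is the mean of the CD4 PBS and nTreg PBS group means (log2 signal) and the y axis the nTreg minus CD4 difference (log2). Orange points are the 864 genes called higher in nTregs, blue points the 913 called lower and grey points the rest; Foxp3 stands highest at 4.29, and Atp8b4 and Dapl1 stand lowest at −2.66 and −2.60.

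After Foxp3 and Tigit, the 15 leading genes on the nTreg side included surface molecules, cytoskeletal proteins and an interferon-inducible GTPase. Muc3a, a membrane mucin, read 7.34, 7.43 and 7.23 on the CD4 arrays and 10.51, 10.25 and 10.86 on the nTreg arrays, a 9.24-fold difference (log2 3.21, SE 0.19, adjusted p = 1.76e-07). Maf, a bZIP factor that drives Il10 transcription, read 6.71, 6.84 and 6.99 against 9.31, 9.65 and 10.00 (log2 2.81, SE 0.22). Tnfrsf9, the costimulatory receptor 4-1BB, read 8.29, 8.61 and 8.63 against 10.78, 11.21 and 11.23 (log2 2.57, SE 0.17). In each of these genes the lowest nTreg array lay more than 2 log2 units above the highest CD4 array. Ecm1, a secreted glycoprotein of the extracellular matrix, read 9.48, 9.45 and 9.30 against 11.43, 12.25 and 12.24 (log2 2.56, SE 0.18). Lrrc32 (GARP), the docking receptor for latent TGF-beta, read 9.19, 9.20 and 9.13 against 10.75, 11.92 and 11.97 (log2 2.37, SE 0.24). For Ecm1 and Lrrc32 the array nTreg PBS 1 was clearly the lowest of its group, and still above all CD4 arrays.

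Less familiar names were among the leading genes too. Fam183b differed by 3.12, Frmd5, a FERM domain protein, by 3.08, and Gbp2b, a GTPase induced by interferon, by 2.98. Enah (Mena), which promotes actin filament growth, read 5.84, 5.99 and 6.04 on the CD4 arrays and 8.50, 8.23 and 8.33 on the nTreg arrays (log2 2.40, SE 0.11). Its CD4 signal lay near background. Neb, which encodes nebulin of muscle thin filaments, read 8.30, 8.60 and 8.48 against 10.57, 10.74 and 10.79 (log2 2.24, SE 0.12), well above background on both sides. Slc25a33, a mitochondrial carrier of pyrimidine nucleotides, differed by 2.25 and Gzmc, granzyme C, by 2.21. The long noncoding RNA Flicr differed by 2.18, and it overlaps Foxp3 in the reference annotation, so signal of the one may in part be read as the other. For Tigit, Frmd5, Gbp2b, Maf, Enah, Gzmc and Flicr the CD4 mean lay under 7.10. Of the genes that would have ranked among these 15, Gm4956, Gm17767 and 2210408F21Rik were passed over as predicted or unnamed models.

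On the CD4 side, the 15 leading genes included Cd40lg, described above, and genes of varied function. Atp8b4, a phospholipid-transporting ATPase, read 9.35, 9.49 and 9.62 on the CD4 arrays and 6.36, 6.97 and 7.15 on the nTreg arrays (log2 −2.66, SE 0.17, adjusted p = 2.88e-07). Dapl1, known from naive T cells, read 11.48, 11.36 and 11.39 against 9.72, 8.46 and 8.25 (log2 −2.60, SE 0.28). Pde3b, a phosphodiesterase that degrades cyclic AMP, read 11.72, 11.68 and 11.64 against 9.05, 9.39 and 9.59, which is 5.06-fold higher in CD4 cells. All 3 CD4 arrays of each gene stood close together and clear of the nTreg arrays, whose values were more spread. Slc16a5, of the monocarboxylate transporter family, differed by −2.53, Mctp2, a membrane protein with C2 domains, by −2.26, and Acpp, an acid phosphatase that can also act on extracellular AMP, by −2.24. Igfbp4, which binds insulin-like growth factors, read 10.29, 10.22 and 10.26 against 7.77, 7.95 and 8.42 (log2 −2.21, SE 0.15). Pdlim4, a PDZ and LIM domain protein, differed by −2.20.

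St8sia1, the synthase of ganglioside GD3, Tgfbr3, the TGF-beta coreceptor betaglycan, Ust, a uronyl sulfotransferase, and Lypd6b completed the CD4 side with Apol7e and Apol7b. St8sia1 read 9.24, 9.27 and 9.29 on the CD4 arrays and 7.06, 7.47 and 7.19 on the nTreg arrays (log2 −2.03). Tgfbr3 read 9.12, 9.22 and 9.28 against 7.15, 7.36 and 7.36 (log2 −1.91). Both genes had nTreg signals close to the background level. The differences of Ust and Lypd6b were −1.89 and −1.87. Apol7e (−2.23) and Apol7b (−1.98) are near-identical neighbours of the apolipoprotein L family, so the array may not separate them. The nTreg means of Atp8b4, Slc16a5, Mctp2, Apol7b and Lypd6b lay under 7.10. The plot of the leading genes by array shows the width of the gap in each gene; these genes were taken from calls whose groups do not overlap.

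**Figure D2:**
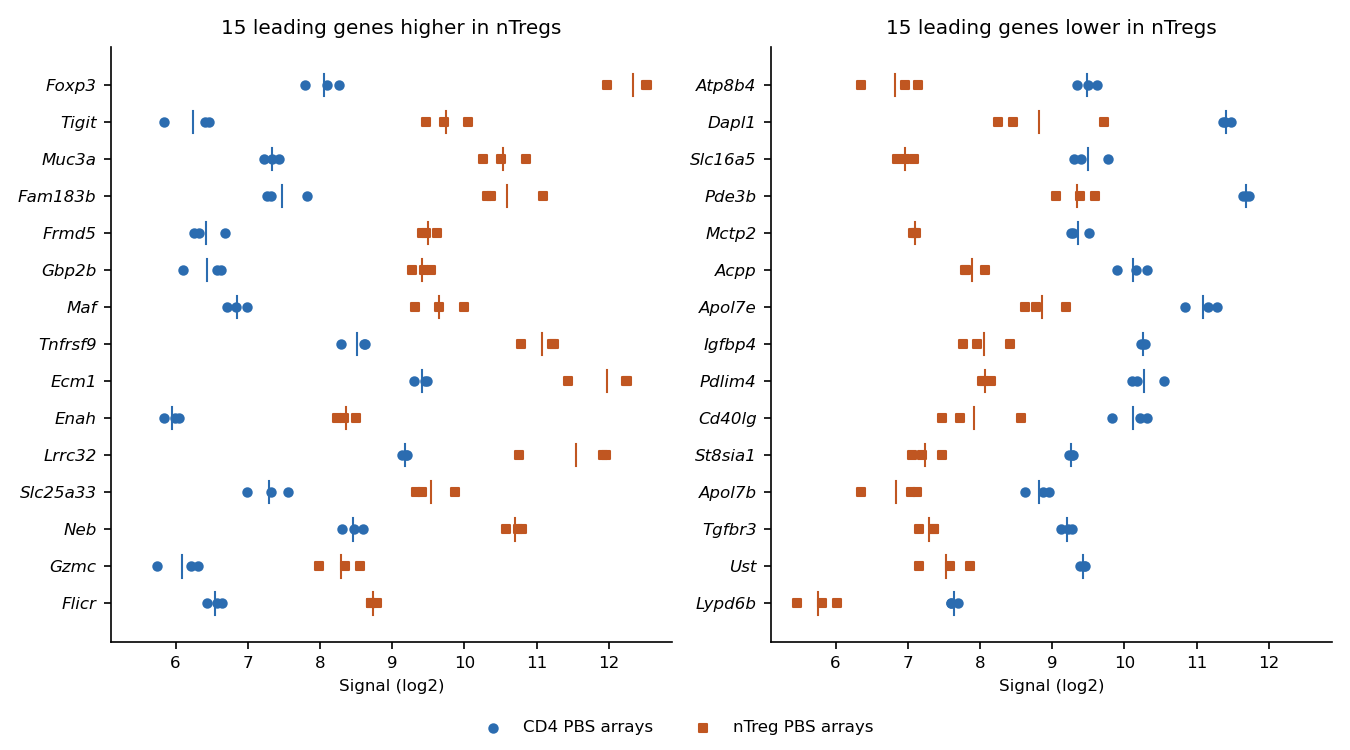
Log2 signal (x axis) of the 15 leading genes in each direction (y axis), with 1 point per array; circles are the 3 CD4 PBS arrays, squares the 3 nTreg PBS arrays and vertical bars the group means. Foxp3 at 7.79 to 8.26 against 11.98 to 12.52 shows the widest gap, and the single nTreg square of Lrrc32 at 10.75 and of Dapl1 at 9.72 is nTreg PBS 1.

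The reference table held promoter windows for 16990 of the 22180 genes, among them 11 of the 15 leading nTreg genes and 10 of the 15 leading CD4 genes, and none for Ikzf2 or Cd40lg. The 250 bases before each listed start were searched on both strands for the core letters of 5 factor families that act in T cells. The 3 windows printed here are those of the gene that defines the sort and of 1 leading gene on each side whose window holds a motif. They come from RefSeq (GRCm38.p6), and capitals mark the motif, read on the gene's strand.
Foxp3, chrX:7579426-7579675, plus strand, first of 2 listed starts, none of the 5 motifs: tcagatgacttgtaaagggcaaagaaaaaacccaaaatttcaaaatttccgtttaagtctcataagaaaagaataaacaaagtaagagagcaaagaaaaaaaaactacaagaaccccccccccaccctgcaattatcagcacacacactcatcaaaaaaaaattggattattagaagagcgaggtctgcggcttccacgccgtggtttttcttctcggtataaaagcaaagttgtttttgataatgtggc
Ecm1, chr3:95739570-95739819, minus strand, AP-1 letters: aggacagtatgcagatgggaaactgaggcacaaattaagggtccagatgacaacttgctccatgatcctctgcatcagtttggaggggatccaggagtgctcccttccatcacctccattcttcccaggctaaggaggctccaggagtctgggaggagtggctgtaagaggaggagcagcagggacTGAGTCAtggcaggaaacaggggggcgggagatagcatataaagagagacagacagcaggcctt
Dapl1, chr2:59484403-59484652, plus strand, forkhead letters on the opposite strand: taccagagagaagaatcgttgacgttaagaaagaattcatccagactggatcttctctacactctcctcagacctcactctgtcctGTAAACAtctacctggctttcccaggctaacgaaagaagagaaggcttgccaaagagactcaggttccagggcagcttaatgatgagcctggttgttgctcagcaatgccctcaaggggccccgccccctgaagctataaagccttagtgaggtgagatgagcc
A gene was counted when any of its windows held the letters. The forkhead letters TGTTTAC were present in 3.15% of all genes with a window, 2.83% of those called higher and 2.74% of those called lower. The STAT letters TTCNNNGAA stood in 7.82%, 8.05% and 7.52% in the same order, the TCF and LEF letters CTTTGAT in 3.38%, 3.13% and 3.28%, and the E-box CACGTG in 7.83%, 9.09% and 8.89%. The AP-1 letters TGANTCA were found in 7.44% of all genes with a window, 7.6% of those called higher and 4.79% of those called lower. The window of the other Foxp3 start, chrX:7580233-7580482, holds the STAT letters. These shares describe letters in a short window and were not tested.

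Among 24 transcription factors known in Tregs, 9 were called higher, 4 lower and 11 not called, with a median difference of 0.22. Leaving out nTreg PBS 1 gave 11 and 3. The reported calls were 54.2% of the list. Of all genes 8.01% were called, 3.9% higher and 4.12% lower, and the list counts below stand against those shares. Beside Foxp3, Maf and Ikzf2, the higher factors included Ikzf4 (Eos), a corepressor partner of Foxp3, at 8.18, 8.02 and 7.79 on the CD4 arrays and 8.87, 9.33 and 9.44 on the nTreg arrays (log2 1.22, SE 0.15, adjusted p = 0.000124). Plagl1, an imprinted zinc finger gene, differed by 0.89, Nfil3, a bZIP factor, by 0.80, and Batf, an AP-1 partner of Irf4, by 0.65. The Plagl1 signals lay near background on both sides, and with the mean over its rows in place of the brightest row its difference was 0.55 (adjusted p = 0.152). Lower in nTregs were Runx1 (10.43, 10.32 and 10.13 against 9.31, 9.44 and 9.73), Gata3 (−0.75) and Ikzf1, the founding Ikaros factor (12.35, 12.37 and 12.32 against 11.67, 11.66 and 11.66, log2 −0.69, SE 0.10). The 3 Ikaros family members Ikzf2, Ikzf4 and Ikzf1 thus differed in opposite directions, and Ikzf3 (−0.09) was not called. Irf4 (0.13) and Foxo1 (−0.26), both needed for Treg function, were not called.

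Of 34 measured genes of the Treg surface and of suppression, 24 were called higher, none lower, and the median was 0.87. This is 70.6% of the list against 3.9% of all genes called higher. The list was chosen with earlier results of these data known and holds the marker Tigit, so its share describes and does not test. Without nTreg PBS 1, 26 were called, and 23 to 26 without any 1 of the 6 arrays. Nt5e (CD73), the enzyme that makes adenosine from AMP, read 7.93, 8.21 and 8.56 on the CD4 arrays and 10.05, 10.53 and 10.44 on the nTreg arrays (log2 2.10, SE 0.18). Gpr83, a Treg-associated receptor, read 7.81, 7.80 and 7.82 against 9.46, 9.92 and 10.09 (log2 2.01, SE 0.16). Nrp1 (neuropilin-1), a marker of thymus-derived Tregs, read 7.94, 8.26 and 8.40 against 9.53, 10.24 and 10.17 (log2 1.78, SE 0.17). These 3 genes had the nTreg arrays at least 1 log2 unit above the CD4 arrays. Itgae (CD103), an integrin that binds E-cadherin, differed by 1.36 with the 3 nTreg arrays at 8.65, 8.58 and 8.65. Il10, the suppressive cytokine, read 5.30, 5.30 and 5.34 against 7.09, 6.69 and 6.85 (log2 1.56), signals that lay under 7.10 on all arrays.

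Other members of that list differed by smaller amounts. Il2ra (CD25), the high-affinity subunit of the interleukin-2 receptor, read 12.47, 12.49 and 12.61 on the CD4 arrays and 13.24, 13.37 and 13.32 on the nTreg arrays (log2 0.79, SE 0.09, adjusted p = 8.78e-05). Ctla4, the inhibitory receptor for CD80 and CD86, read 10.55, 10.66 and 10.47 against 11.06, 11.38 and 11.42 (log2 0.73, SE 0.11). Tnfrsf18 (GITR) differed by 0.81, Izumo1r (folate receptor 4) by 1.06 and Ebi3, the beta chain of interleukin-35, by 0.73. Each of these had all nTreg arrays above all CD4 arrays, by less than 2-fold on average except Izumo1r. Among the 10 not called were Entpd1 (CD39, 0.29), Lag3 (0.10) and Tgfb1 (0.05). Il2rb, the signalling subunit beside Il2ra, was not called either: it read 13.25, 13.27 and 13.24 on the CD4 arrays and 13.32 and 13.28 on nTreg PBS 2 and 3, but 11.43 on nTreg PBS 1.

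Of 18 genes known to be lower in Tregs, 16 were called lower (88.9%, against 4.12% of all genes), and the median was −0.95. This list too was chosen with earlier results of these data known. It holds the marker Cd40lg, so its share describes and does not test. All 16 were also called without nTreg PBS 1, and 14 to 16 without any 1 array. Beside Cd40lg, Pde3b, Dapl1, Igfbp4 and Tgfbr3, they included Actn1, an actin crosslinker, at 11.77, 11.79 and 11.78 on the CD4 arrays and 10.11, 10.34 and 10.45 on the nTreg arrays (log2 −1.48, SE 0.12, adjusted p = 2.5e-06). Themis, a signalling protein of thymocyte selection, read 10.94 to 11.24 against 9.76 to 9.88 (log2 −1.24, SE 0.11). Il7r, the interleukin-7 receptor, was among the smaller ones at −0.66 (SE 0.09). Il2 was called at −0.62 (SE 0.16, adjusted p = 0.0315), with signals of 4.51 to 5.55 that lay near background, and its call was lost without any 1 array other than nTreg PBS 1. Sox4 (0.36) and Id2 (0.32) were not called.

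Of 27 costimulatory and inhibitory receptors and ligands, 10 were higher in nTregs and 3 lower, with a median of 0.33. Leaving out nTreg PBS 1 gave the same counts. Cd80, a B7 ligand more familiar on antigen-presenting cells, read 8.71, 8.84 and 9.08 on the CD4 arrays and 11.09, 10.98 and 10.96 on the nTreg arrays, a 4.38-fold difference (log2 2.13, SE 0.14, adjusted p = 2.89e-07). Cd86, the second B7 ligand, read 7.38, 7.56 and 7.81 against 8.56, 8.33 and 8.55 (log2 0.89, SE 0.13). Cd200r1, an inhibitory receptor for CD200, read 6.73, 6.68 and 6.80 against 9.11, 8.45 and 8.73 (log2 2.03, SE 0.14), with CD4 signals under 7.10. Icos, a CD28-family costimulator, read 9.31, 9.27 and 9.19 against 10.80, 10.70 and 10.69 (log2 1.47, SE 0.11). The nTreg arrays of these 4 genes were all above the CD4 arrays. Lower in nTregs was Cd226, the activating receptor that competes with Tigit for CD155, at 10.69, 10.81 and 10.73 against 10.05, 9.78 and 9.94 (log2 −0.82, SE 0.11). Cd96, a further receptor for CD155, was lower too (−0.56, SE 0.12). Of the 3 receptors of that ligand, Tigit alone was higher in nTregs. Cd28 itself (−0.10) was not called.

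In the TNF receptor superfamily, 7 of 18 members were higher in nTregs and none lower, with a median of 0.13, and the counts were the same without nTreg PBS 1. Tnfrsf4 (OX40), a costimulatory receptor, read 10.63, 10.57 and 10.51 on the CD4 arrays and 12.10, 12.23 and 12.23 on the nTreg arrays (log2 1.62, SE 0.09, adjusted p = 1.03e-07). Tnfrsf8 (CD30) read 7.35, 6.84 and 7.37 against 8.07, 8.78 and 8.70 (log2 1.33, SE 0.19). The groups did not overlap in either gene, as was so for 1763 of the 1777 calls. Tnfrsf10b, the death receptor for TRAIL, differed by 1.05 and Tnfrsf1b (TNFR2) by 0.76. Of 15 ligands, Tnfsf9, the ligand of 4-1BB, was higher by 0.72 (SE 0.15), Tnfsf4 by 0.75 (SE 0.21), and Cd40lg was lower. The call of Tnfsf4, the OX40 ligand, was lost without CD4 PBS 2, CD4 PBS 3, nTreg PBS 2 or nTreg PBS 3. Cd27 (−0.28) and Tnfrsf1a (−0.40) were not called.

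Of 22 T helper cytokines, Il10 and Csf1, the macrophage growth factor, were higher and Il2 lower, which is 13.6% of the list against 8.01% of all genes. Csf1 read 6.68, 6.67 and 6.99 on the CD4 arrays and 7.54, 7.39 and 7.69 on the nTreg arrays (log2 0.76, SE 0.13, adjusted p = 0.00213). Its CD4 signals lay under 7.10. Ifng (0.28), Il4 (−0.10), Il17a (−0.22) and Tnf (−0.14) were not called, and the signals of Ifng, Il4 and Il17a lay at 7.06 or less on every array. Of 13 chemokine ligands, Ccl5 (RANTES) was called, at 9.53, 9.66 and 9.59 against 11.14, 10.33 and 10.53 (log2 1.07, SE 0.18). Its highest value was on nTreg PBS 1. That 1 call is 7.69% of the chemokine list, near the 8.01% of all genes.

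Of 28 cytokine receptors, 9 were lower and 3 higher in nTregs (8 and 5 without nTreg PBS 1), with a median of −0.20 that was −0.07 without that array. The share called was 42.9%, against 8.01% of all genes. Il6ra, the interleukin-6 receptor, read 11.02, 10.65 and 10.43 on the CD4 arrays and 9.15, 9.56 and 9.60 on the nTreg arrays (log2 −1.27, SE 0.15, adjusted p = 0.000124). Il18r1, the interleukin-18 receptor, read 9.76, 9.99 and 9.93 against 8.91, 9.16 and 9.31 (log2 −0.77), and Tgfbr2, the signalling receptor of TGF-beta, 9.95, 9.93 and 9.98 against 9.02, 9.20 and 9.31 (log2 −0.78). No nTreg array reached the CD4 range in these 3 genes, and 1763 of the 1777 calls likewise had no overlap. Il21r was lower by a log2 difference of −0.60. Higher were Il2ra, Ifngr1 (0.79), the interferon-gamma receptor, and Il1r2, a decoy receptor for interleukin-1 (log2 1.53, SE 0.21), whose CD4 signals lay under 7.10. Downstream, of 20 STAT, JAK, PIM and SOCS genes 3 were called, or 15%. Socs2, a feedback inhibitor of cytokine signals, read 8.91, 8.72 and 9.01 against 10.89, 10.44 and 10.16 (log2 1.61). Pim2, a survival kinase, read 11.61, 11.45 and 11.20 against 9.16, 10.08 and 10.09 (log2 −1.64, SE 0.20). The difference of Stat4 was small (−0.36), and its call was lost without any 1 array other than nTreg PBS 2.

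TGF-beta genes differed member by member. Of 25 genes of the TGF-beta and retinoid pathway, 5 were higher and 2 lower (6 and 2 without nTreg PBS 1; 4 lower without nTreg PBS 2). Among the higher were Lrrc32, as above, Itgb8, an integrin subunit that activates latent TGF-beta, at 6.28, 6.14 and 6.07 on the CD4 arrays and 7.5, 6.98 and 6.77 on the nTreg arrays (log2 0.92, SE 0.18), and Itgav, the partner subunit of Itgb8 (log2 0.53, SE 0.10). The Itgb8 signals lay under 7.10 on the CD4 arrays and near it on the nTreg arrays. Tgfbr2 and Tgfbr3 were lower, while the receptor Tgfbr1 (−0.06) and the cytokine gene Tgfb1 (0.05) were not called. Of 14 genes of adenosine and cyclic AMP, Nt5e, Adk, which phosphorylates adenosine (1.21, SE 0.13), and Crem, a cyclic AMP-responsive factor (0.82, SE 0.10), were higher. Pde3b and Pde7a, both cyclic AMP phosphodiesterases, were lower, Pde7a by a log2 difference of −0.38 with a call lost without CD4 PBS 1 or CD4 PBS 3. In that list 5 genes were higher when nTreg PBS 1 was left out.

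Homing and adhesion genes were divided. Of 34 chemokine receptors, integrins and homing genes, 10 were higher and 3 lower in nTregs (11 and 3 without nTreg PBS 1), with a median of 0.12. Without CD4 PBS 1 or CD4 PBS 2, 5 were higher, and without CD4 PBS 3, 6; without nTreg PBS 2 or nTreg PBS 3, 5 were lower. Ccr4, a receptor of activated and skin-homing T cells, read 7.39, 7.41 and 7.64 on the CD4 arrays and 8.01, 8.83 and 8.59 on the nTreg arrays (log2 1.00, SE 0.17, adjusted p = 0.0027). Ccr7, which guides T cells to lymph nodes, read 10.53, 10.54 and 10.45 against 9.21, 9.38 and 9.41 (log2 −1.17, SE 0.10). The Ccr7 arrays differed little within each population. Cxcr6 was lower by a log2 difference of −0.71, with an nTreg mean of 6.79, under 7.10. Ccr8 (0.26), a receptor of tissue Tregs, and Cxcr3 (−0.03) were not called.

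Of 21 genes of naive and memory T cells, 10 were lower in nTregs and none higher, with a median of −0.56. This is 47.6% of the list against 4.12% of all genes called lower. Without nTreg PBS 1, 9 were lower and 1 higher, and the median was −0.21. Beside Dapl1, Igfbp4 and Ccr7, these included Lef1 (−0.67), a factor of T cell quiescence, Satb1 (−0.74), a chromatin organiser, Eomes (−0.73) and Ly6c2 (−0.88). Ly6c2 is near-identical to Ly6c1 (−0.36, not called), so their signals may mix. S1pr1 (−0.56) and Klf2 (−0.31), which direct exit from lymphoid organs, were not called. Among 25 factors of the effector lineages, 7 were higher and 4 lower, with a median of 0.06 that was 0.02 without nTreg PBS 1 and −0.03 with arrays centred. Zbtb32, a repressor induced by activation, read 8.0, 7.94 and 8.10 on the CD4 arrays and 8.93, 9.53 and 9.51 on the nTreg arrays (log2 1.31, SE 0.14). Hif1a, the hypoxia factor, differed by 0.73 and Tox by 0.68. Lower were Eomes and Runx3 (−0.61), factors of cytotoxic and type 1 cells, Gata3 and Tbx21. The call of Tbx21 was lost without any 1 CD4 array or nTreg PBS 1. Bcl6 (−0.37), of follicular helper cells, was not called. With nTreg PBS 1 left out, 8 of these factors were higher and 3 lower.

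Of 20 cytotoxic genes, 6 were higher in nTregs, 1 was lower and 13 were not called, at a median of 0.10 that was 0.03 without nTreg PBS 1 and 0.01 with arrays centred. Gzmb, granzyme B, read 11.05, 11.11 and 11.28 on the CD4 arrays and 12.55, 12.59 and 12.59 on the nTreg arrays (log2 1.43, SE 0.11, adjusted p = 2.39e-06). Prf1, perforin, read 7.34, 7.38 and 7.61 against 7.88, 8.37 and 8.23 (log2 0.72, SE 0.13). Rab27a, which brings granules to the membrane, differed by 1.02, and Cst7, an inhibitor of granule cathepsins, by 0.75. Ctsw, cathepsin W, was lower in nTregs at 11.84, 11.87 and 11.75 against 10.26, 10.45 and 10.63 (log2 −1.37, SE 0.11). All these genes had groups without overlap, as had 1763 of the 1777 calls. Gzma (−0.33) and Gzmk (−0.28) were not called, and the probes of the granzyme family may share signal. The counts were 6 and 2 without nTreg PBS 1. The CD8 markers, whose cells carry the same granules, did not separate the groups: Cd8a read 6.91, 6.96 and 6.69 against 6.45, 6.73 and 7.39, and Cd8b1 10.19, 9.97 and 10.29 against 10.25, 10.49 and 10.53. Their part in the granule genes was not tested.

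Of 31 genes of T cell receptor signalling, 16 were lower in nTregs and 1 higher, with a median of −0.52 that was −0.29 without nTreg PBS 1. In all, 54.8% of the list was called, against 8.01% of all genes. The lower count was 14 without nTreg PBS 1 and 11 to 18 over the arrays left out in turn. Txk, a Tec family kinase, read 11.60, 11.67 and 11.57 on the CD4 arrays and 10.12, 10.61 and 10.59 on the nTreg arrays (log2 −1.18, SE 0.13, adjusted p = 5.21e-05). Ptpn6 (SHP-1), a phosphatase that restrains the receptor, read 11.84, 11.72 and 11.95 against 10.26, 10.87 and 11.02 (log2 −1.12, SE 0.16). Rasgrp1, which activates Ras, read 11.45, 11.45 and 11.59 against 10.40, 10.72 and 10.79 (log2 −0.86, SE 0.12). Each had its lowest value on nTreg PBS 1, and the list's mean signal was 10.52 on that array against 10.95 and 10.97 on the other nTreg arrays and 11.24 to 11.28 on the CD4 arrays. Grap2 (−0.63), an adaptor, and Cd4 itself (−0.83) were lower as well. Activators and inhibitors of the receptor were thus both among the lower genes. Trat1, a transmembrane adaptor of the receptor complex, ran against the rest at 10.35, 10.45 and 10.37 against 12.14, 11.67 and 11.75 (log2 1.47, SE 0.12). Cd3g (−0.13), Cd3d (−0.07) and Fyn (−0.21) were not called.

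Of 28 genes induced by the receptor or by stress, 8 were higher and 2 lower, with a median of 0.16 that was 0.33 without nTreg PBS 1; the lower count was 1 without any CD4 array or nTreg PBS 1, and the higher count was 13 without nTreg PBS 1, 5 without CD4 PBS 2 and 5 without CD4 PBS 3. Fos read 7.46, 7.48 and 7.85 on the CD4 arrays and 8.12, 8.51 and 8.78 on the nTreg arrays (log2 0.87, SE 0.16, adjusted p = 0.00351). Dusp5, a phosphatase of ERK kinases, differed by 0.84 (SE 0.10), and Fosl2, an AP-1 subunit, by 0.93 (SE 0.20). Nfatc1 was lower (−0.73, SE 0.15). Egr2 (0.01), Myc (0.16) and Cd69 (−0.01), all classic response genes, were not called. Of 23 NF-kB genes, 3 were higher and 4 lower, among them Nfkbia, the inhibitor IkB-alpha (0.49, SE 0.09), and Map3k14, the NIK kinase (−0.64, SE 0.12). Together these calls were 30.4% of the NF-kB list, against 8.01% of all genes. The higher count was 1 without any CD4 array or nTreg PBS 2. The lower count was 2 without CD4 PBS 1, 1 without CD4 PBS 2 or CD4 PBS 3, and 3 without nTreg PBS 1.

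Of 22 targets of p53, 9 were higher in nTregs and none lower, with a median of 0.44 against 0.03 for all genes. This is 40.9% of the list called higher, against 3.9% of all genes. Without nTreg PBS 1 the count was 13, and it was 6 to 13 over the arrays left out in turn. Cdkn1a (p21), the inhibitor of cyclin-dependent kinases, read 9.67, 9.79 and 9.87 on the CD4 arrays and 11.58, 11.94 and 11.95 on the nTreg arrays, a 4.13-fold difference (log2 2.05, SE 0.12, adjusted p = 1.24e-07). Plk2, a polo-like kinase, read 6.26, 6.51 and 5.52 against 7.74, 8.28 and 8.03 (log2 1.92, SE 0.22). Phlda3, an inhibitor of Akt, read 8.63, 8.21 and 7.72 against 9.31, 9.47 and 9.32 (log2 1.18, SE 0.17). All 3 were higher on every nTreg array, while the CD4 values of Plk2 and Phlda3 varied by about 1 log2 unit. The CD4 signals of Plk2 lay under 7.10. Ccng1, cyclin G1, differed by 0.65 and Zmat3, an RNA-binding zinc finger protein, by 0.57. Mdm2 (0.35), the ubiquitin ligase of p53, and Bbc3 (−0.07), a death gene of the family, were not called. Of 23 regulators of apoptosis, 2 were higher and 1 lower, or 13.0% of the list against 8.01% of all genes. The higher count was 0 without CD4 PBS 2 or CD4 PBS 3. It was 1 without CD4 PBS 1, nTreg PBS 2 or nTreg PBS 3. The lower count was 0 without CD4 PBS 1 or CD4 PBS 3 and 2 without nTreg PBS 1.

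Of 26 genes of G2 and mitosis, 20 were called lower and none higher, with a median of −0.51. The groups did not overlap at any of the 26. Of all genes, 4.12% were called lower and 13.2% had every nTreg array below every CD4 array. The lower count was 16 without nTreg PBS 1, and 13, 11 and 12 without CD4 PBS 1, 2 and 3. Prc1, which organises the spindle midzone, read 10.07, 10.19 and 10.38 on the CD4 arrays and 9.0, 9.42 and 9.59 on the nTreg arrays (log2 −0.87, SE 0.15, adjusted p = 0.00263). Ttk (Mps1), a kinase of the spindle checkpoint, read 9.64, 9.69 and 9.79 against 8.99, 8.93 and 9.05 (log2 −0.71, SE 0.12). Cdc25c, a phosphatase that activates Cdk1, read 8.34, 8.52 and 8.63 against 7.64, 7.61 and 7.94 (log2 −0.77, SE 0.11). The differences were under 2-fold throughout the list, from −0.15 for Ube2c to −0.87 for Prc1. Of 30 genes of G1, S phase and replication, 6 were lower and 3 higher, with a median of −0.31 that was −0.20 without nTreg PBS 1; 7 were lower without nTreg PBS 1 and 3 without CD4 PBS 3. Lower were E2f2 (−0.90) and Tk1, thymidine kinase (−0.62). Rrm2, a subunit of ribonucleotide reductase, was lower by a log2 difference of −0.71, but of −0.45 (adjusted p = 0.170) with the mean over its rows. Cdkn1a, Cdk6 (0.70) and Ccnd2, cyclin D2 (0.50), were higher, and Pcna (−0.10) was not called. In bulk RNA, fewer cells in a phase and less RNA per cell cannot be told apart.

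Of 24 genes of cholesterol and fatty acid synthesis, 11 were lower in nTregs and 1 higher, with a median of −0.48. Called either way were 50% of the list and 8.01% of all genes. The lower count was 11 without nTreg PBS 1 and 7 without CD4 PBS 3. Fads2, a fatty acid desaturase, read 10.85, 11.05 and 11.24 on the CD4 arrays and 8.89, 9.93 and 10.08 on the nTreg arrays (log2 −1.41, SE 0.24, adjusted p = 0.00233). Scd1, which makes monounsaturated fatty acids, read 9.91, 9.97 and 9.97 against 9.20, 9.0 and 8.99 (log2 −0.89, SE 0.13). Hmgcs1, which commits acetyl-CoA to the mevalonate pathway, differed by −0.97 (SE 0.19), Cyp51 by −0.72 and Fdps by −0.55. Elovl6, a fatty acid elongase, was the higher one (0.61, SE 0.11), and Fasn (−0.06), fatty acid synthase, was not called. Of 24 genes of glycolysis and hypoxia, P4ha2, a collagen prolyl hydroxylase, was lower (−0.98, SE 0.12) and 3 were higher, with a count of 0 without CD4 PBS 1, CD4 PBS 2 or nTreg PBS 3 and of 1 without nTreg PBS 2. The lower count was 6 without nTreg PBS 3 and 2 without nTreg PBS 2. None of 25 nuclear genes of oxidative phosphorylation was called by limma, while 9 had an unadjusted p under 0.05.

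The plot of 4 lists by array shows the members of the p53, receptor signalling, mitotic and sterol lists, and the lower values of nTreg PBS 1 within the last 3.

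**Figure D3:**
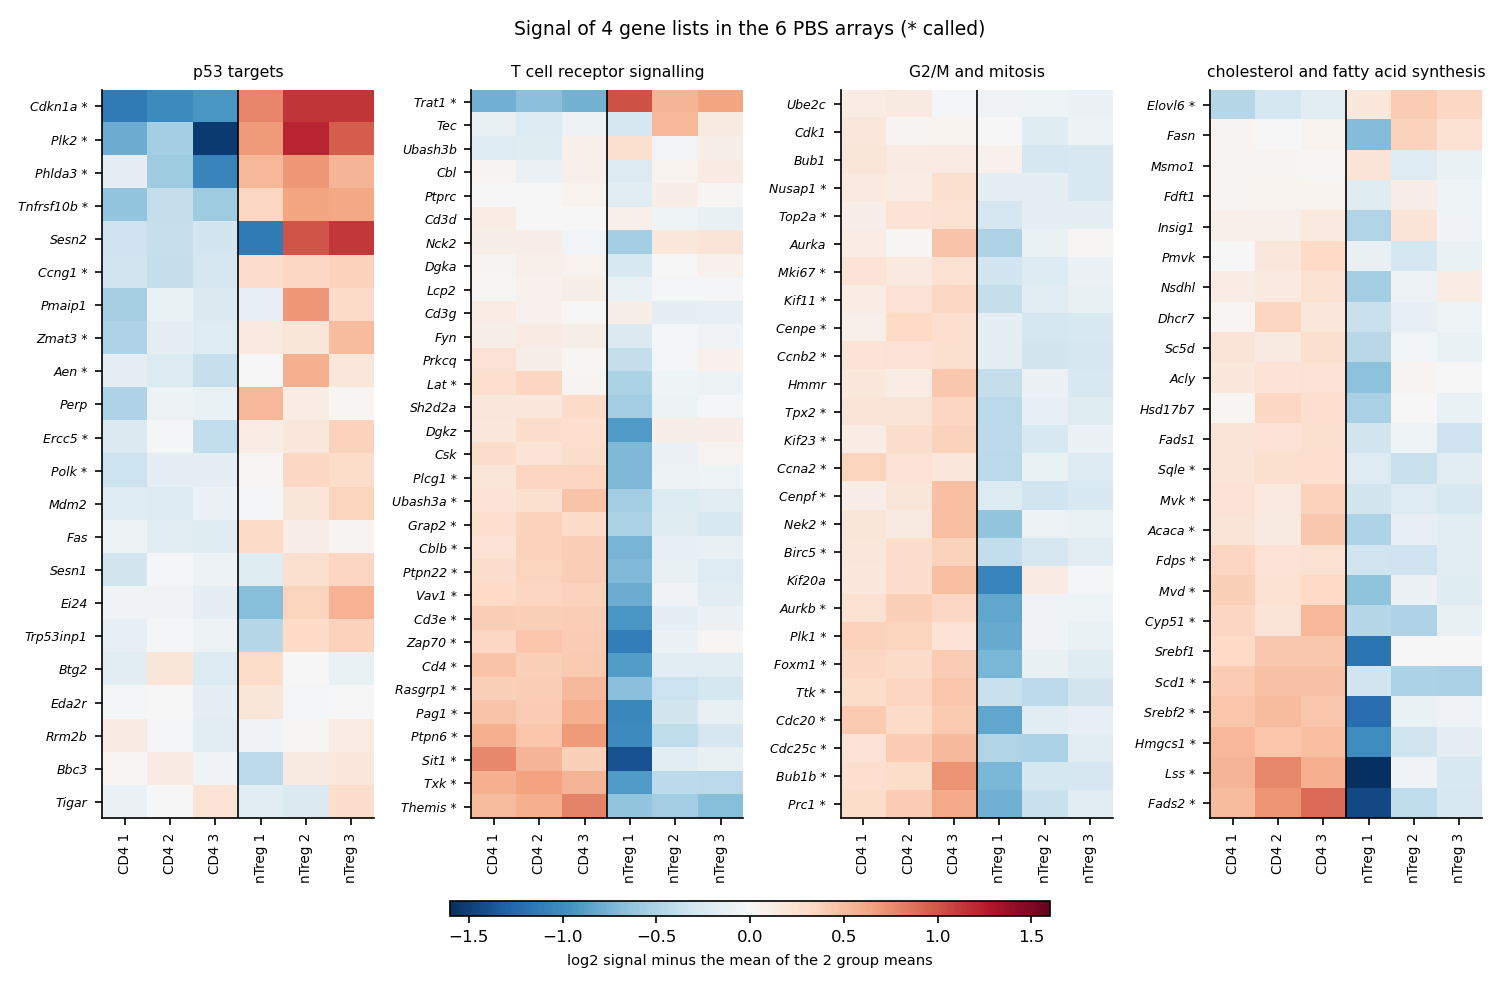
Colour gives the log2 signal of a gene on an array minus the mean of its 2 group means, for the 3 CD4 PBS and 3 nTreg PBS arrays (columns) and the members of 4 lists (rows); an asterisk marks a called gene. Cdkn1a and Plk2 lead the 22 p53 targets with differences of 2.05 and 1.92, and the column nTreg 1 has the lowest mean of the receptor signalling, mitotic and sterol lists.

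Of 24 genes stimulated by type I interferon, 5 were lower and none higher, which is 20.8% of the list against 4.12% of all genes called lower. The median was −0.06, and −0.12 without nTreg PBS 1. Without nTreg PBS 1 as well 5 were lower, against 3 without CD4 PBS 1 and 2 without CD4 PBS 2 or CD4 PBS 3. Irf7, the factor that amplifies the response, read 9.22, 9.32 and 9.33 on the CD4 arrays and 8.14, 8.41 and 8.56 on the nTreg arrays (log2 −0.92, SE 0.12, adjusted p = 0.000352). Ifit2, an RNA-binding antiviral protein, differed by −0.75, while Isg15 (0.29) and Mx1 (0.13) were not called. Of 12 GTPases and related genes induced by interferon-gamma, Gbp3 (8.86, 8.76 and 9.07 against 10.22, 10.18 and 9.95, log2 1.22, SE 0.11) and Gbp5 (0.79, SE 0.14) were higher, 16.7% of the list against 3.9% of all genes, and Irf1 (−0.31) was not called.

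Of 18 genes of the DNA methylation machinery, 2 were higher and 6 lower without drug, with a median of −0.22. The list includes the methyltransferases, which the drug of the other arrays inhibits. The lower count was 4 without nTreg PBS 1, 3 without CD4 PBS 1 or CD4 PBS 2, and 2 without CD4 PBS 3. Tet1, which oxidises methylcytosine, read 8.22, 8.22 and 8.44 on the CD4 arrays and 7.71, 7.71 and 7.72 on the nTreg arrays (log2 −0.58, SE 0.11, adjusted p = 0.00391). Gadd45g, a stress gene linked to demethylation, read 8.15, 8.12 and 7.34 against 8.65, 9.28 and 9.40 (log2 1.24, SE 0.21). Gadd45b differed by 0.70. Each of these 3 genes was without overlap, like 1763 of the 1777 calls. The methyltransferases Dnmt1 (−0.47), Dnmt3a (−0.16) and Dnmt3b (0.11) were not called. Of 25 genes of ribosome biogenesis and Myc, 4 were higher and none lower, among them Gnl3, nucleostemin (0.95, SE 0.19); 3 were higher without nTreg PBS 1, 1 without CD4 PBS 1 or CD4 PBS 2, and 2 without CD4 PBS 3 or nTreg PBS 2. Of 25 genes of amino acid transport and stress, Slc38a1, a glutamine transporter, was lower (−0.46), with a call lost without any 1 array other than nTreg PBS 3. That is 4% of the list, under the 8.01% of all genes called.

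Markers of other cell types lay mostly near background, and their part in any result was not tested. Of 9 T cell markers, Cd4, Cd3e (−0.77) and Thy1 (−0.40) were lower in nTregs, and the list's mean signal was 11.29 to 11.61 on nTreg arrays and 11.78 to 11.81 on CD4 arrays; the call of Thy1 was lost without CD4 PBS 1, CD4 PBS 2 or nTreg PBS 2 and that of Cd3e without CD4 PBS 3. Of 13 B cell markers, Cd79b, a chain of the B cell receptor complex, was higher (0.80, SE 0.16), while its partner Cd79a (−0.07) and Ms4a1 (CD20, 0.15) were not called. The 1 call is 7.69% of that list, against 8.01% of all genes. The B cell list averaged 6.16 to 6.38 on nTreg arrays and 6.10 to 6.18 on CD4 arrays. Of 24 myeloid and dendritic markers, H2-Ab1 (0.82) and H2-Eb1 (0.48), chains of MHC class II, were higher. These 2 calls are 8.33% of the list, against 8.01% of all genes. The call of H2-Ab1 was lost without CD4 PBS 1 or CD4 PBS 2, and that of H2-Eb1 without CD4 PBS 2, CD4 PBS 3 or nTreg PBS 2. Itgam (0.24), Lyz2 (0.15) and Csf1r (0.10) were not called, and the list averaged 6.75 to 6.94 on nTreg arrays and 6.66 to 6.72 on CD4 arrays, without overlap. Of its members 18 of 24 lay below the background level on all 6 arrays, while Ctss, cathepsin S, read 11.69 to 11.83 on CD4 arrays and 11.87 to 12.38 on nTreg arrays (0.27, not called). Below that level on all 6 arrays were 11 of the 13 B cell markers, 5 of 8 NK and gamma-delta markers and 3 of 6 erythroid and platelet markers, and Cd8b1 lay above it throughout. None of 8 NK and gamma-delta markers, 6 erythroid and platelet markers, 10 mitochondrial RNAs or 4 sex-linked genes was called by limma, and 1 sex-linked gene alone among these had an unadjusted p under 0.05. Xist read 5.57 to 5.83 on all 6 arrays, near background. With the Y-linked genes Eif2s3y, Kdm5d and Uty, the list averaged 8.55 to 8.65 on CD4 arrays and 8.39 to 8.66 on nTreg arrays.

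The plot of the lists places each member on the scale of the difference, from the genes known to be lower in Tregs at a median of −0.95 to the surface and suppressive genes at 0.87.

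**Figure D4:**
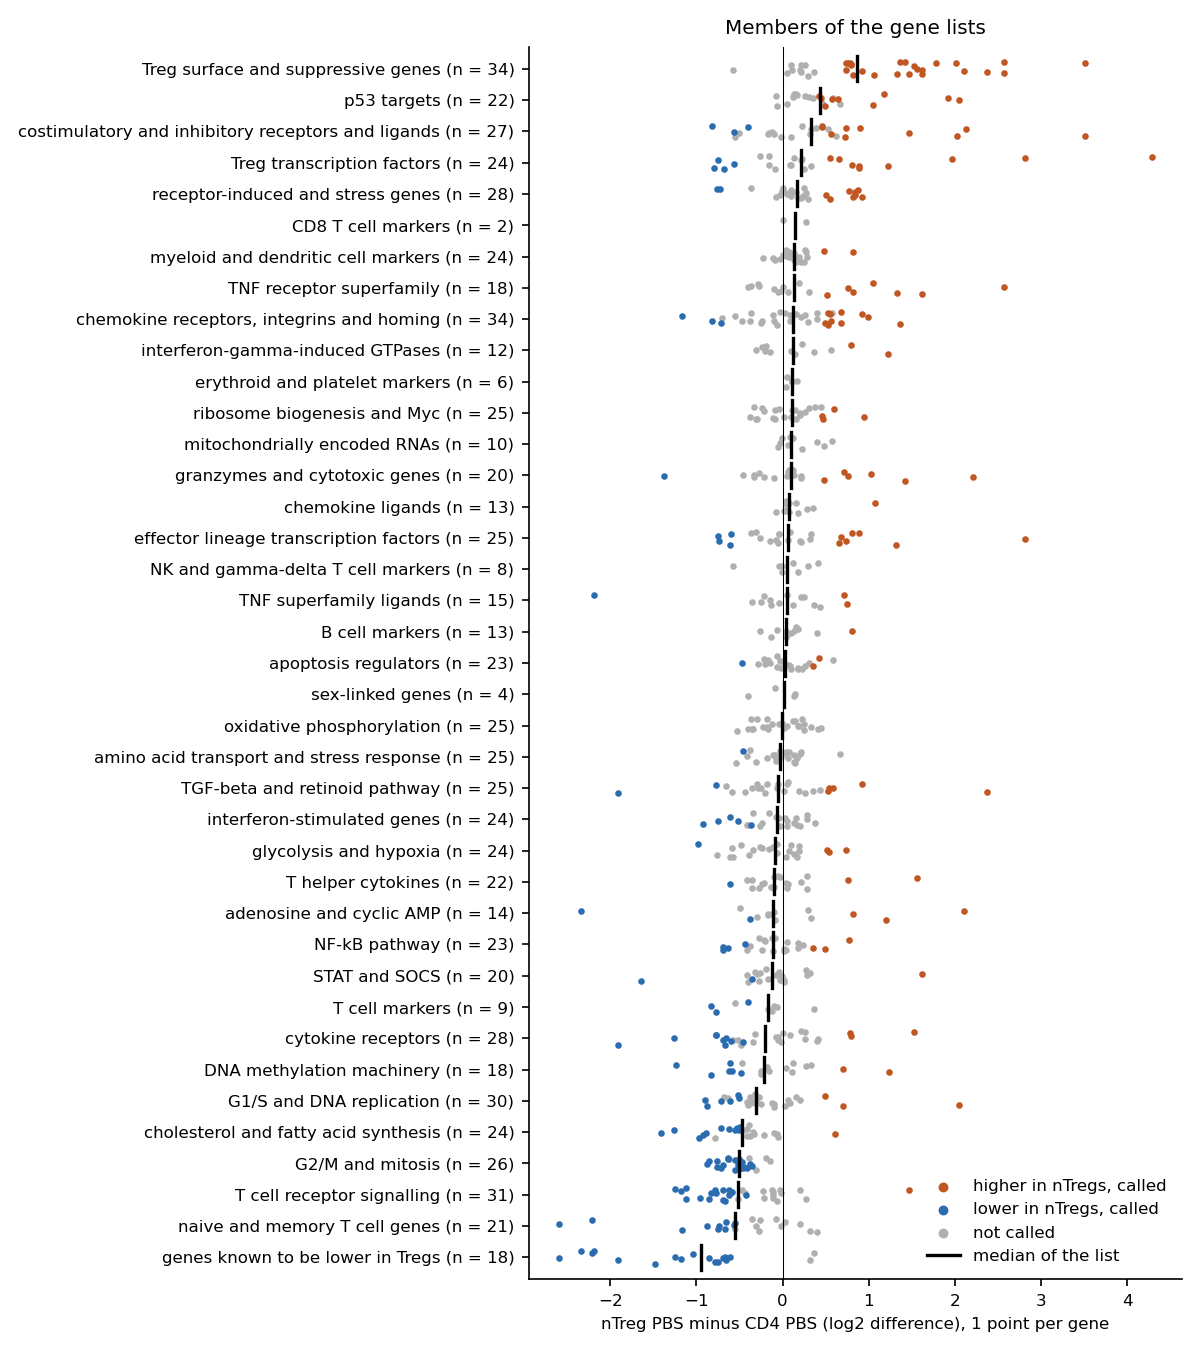
Each point is 1 gene of a list, placed by its nTreg minus CD4 difference (log2, x axis); the black bar is the median of the list, and rows are ordered by it, with the number of measured genes after each name (some genes stand in several lists). Orange and blue points are called, grey points are not; the surface and suppressive list has a median of 0.87, the p53 targets 0.44, the mitotic list −0.51 and the genes known to be lower in Tregs −0.95.

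The 6 AzaC arrays are a second reading of the same populations in libraries that share none with the PBS arrays, though under another treatment. There, nTregs and CD4 cells differed at 1498 genes (6.75%), 1013 higher and 485 lower. Of the 1777 genes called without drug, 722 were called the same way with AzaC, which is 40.6% of the PBS calls and 48.2% of the AzaC calls. Of the 279 calls of 2-fold or more, 208 (74.6%) were called the same way, and 10 had the other sign. The sign was the same for 86.9% of PBS calls and for 50.7% of all genes. Across genes, which are not independent, Pearson's r of the 2 differences was 0.465 over all genes and 0.841 over the PBS calls. Among the 2-fold calls the AzaC difference had a median size of 0.728 times the PBS difference, a ratio taken in genes chosen for a large PBS value.

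The leading genes can be read side by side. Tigit differed by 2.99 with AzaC and 3.51 without, Frmd5 by 3.41 and 3.08, Tnfrsf9 by 3.06 and 2.57, Ikzf2 by 2.20 and 1.96, and Cd40lg by −2.04 and −2.19. The test of the change itself, the interaction, was not past the threshold for these 5. Foxp3 differed by 3.08 with AzaC, where the CD4 mean was 9.62 and had been 8.05 without (interaction −1.21, SE 0.23, adjusted p = 0.0517). The interaction was called for 45 genes (0.203%), a count of 9 without nTreg AzaC 1, 10 without CD4 AzaC 1 or 3 and 69 without nTreg PBS 1. Leaving out CD4 PBS 1, 2 and 3 gave 16, 12 and 15, and leaving out nTreg PBS 2, nTreg AzaC 2, nTreg AzaC 3 and CD4 AzaC 2 gave 29, 18, 15 and 24. Of the 45, 32 were among the PBS calls and 17 among those of 2-fold or more. In 22 of the 32 the difference was smaller with AzaC. The PBS arrays enter both sides of that comparison, so a chance extreme in them counts in both.

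Atp8b4, Cdkn1a and Cd80 had called interactions, with smaller differences under AzaC. With AzaC the mean of Atp8b4 was 9.23 in CD4 cells and 8.56 in nTregs, a difference of −0.68 in place of −2.66 (interaction 1.99, SE 0.24, adjusted p = 0.00311). Cdkn1a stood at 11.73 in CD4 cells and 12.15 in nTregs with AzaC, so its difference was 0.43 in place of 2.05 (interaction −1.62, SE 0.16, adjusted p = 0.00126). Cd80 stood at 10.37 and 10.82, a difference of 0.45 in place of 2.13 (interaction −1.69, SE 0.19, adjusted p = 0.00195). For Cdkn1a and Cd80 the CD4 mean was the one that differed more between treatments, and for Atp8b4 the nTreg mean. These 3 interactions were called without each of the 12 arrays in turn.

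**Figure D5:**
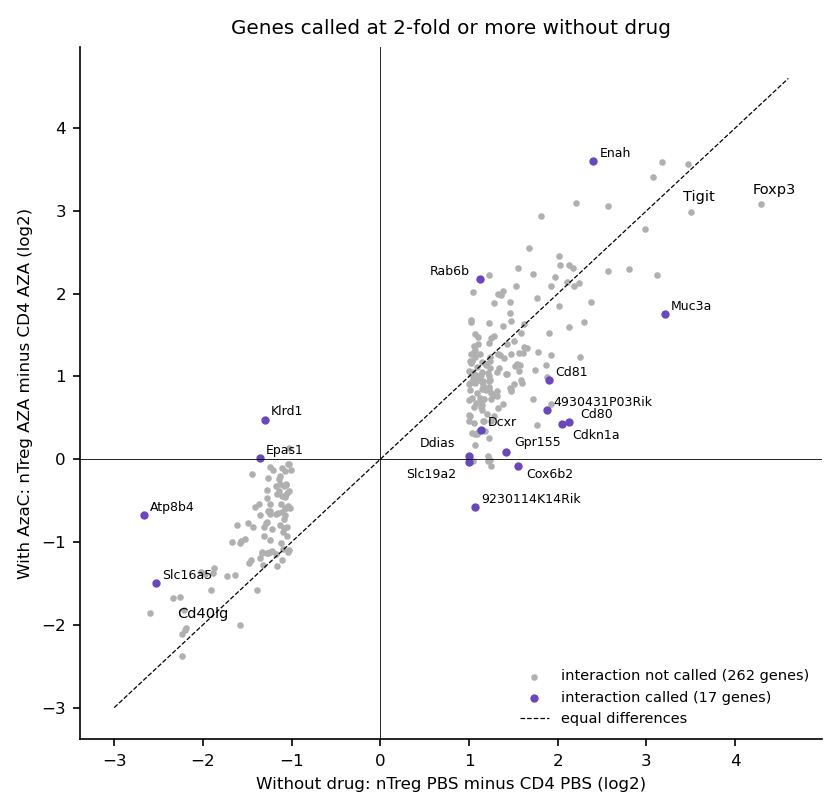
Each point is 1 of the 279 genes called at 2-fold or more without drug, with its nTreg minus CD4 difference (log2) without drug on the x axis and with AzaC on the y axis; the dashed line marks equal differences. Purple points are the 17 genes with a called interaction; Atp8b4 lies at −2.66 and −0.68, and Cdkn1a at 2.05 and 0.43, both nearer 0 with AzaC.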

How the data were processed

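The authors' deposited table holds log2 values. Per the submitters' processing notes, the tool was Expression Console of Affymetrix and the method RMA, both without version. RMA subtracts background, normalizes by quantiles and summarises probe sets. RNA was labelled with the WT Pico kit, per the labels. The values were used as deposited. Of 41345 rows, 23521 carry exactly 1 symbol, 1814 several and 16010 none. The brightest row over the 12 arrays was kept per gene, which left 22180 genes; 193 identifiers had no match in the reference, and 0 symbols were updated. No pair of arrays was identical.

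With R 4.3.3, limma 3.58.1 (and statmod 1.5.0 in the random block fit) fitted 1 mean per group to all 12 arrays, 3 in each of 4 groups, with 8 residual degrees of freedom and a prior of 5.95. Each adjusted p is limma's, by the Benjamini-Hochberg method over all genes. With 3 arrays per group, the number of arrays limits the precision. On simulated data for the PBS comparison (22180 genes, 200 changed), 96% of changes of 1 and 24% of changes of 0.5 on the log2 scale were recovered. There were 9 false calls. The simulated noise was normal, independent between genes and of equal spread on all arrays. It therefore holds no array that stands apart like nTreg PBS 1, and recovery in the real data may be lower.

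The genes named were the 4 markers, the 15 largest differences in each direction among calls without overlap that passed without each of the 6 PBS arrays (predicted models passed over), and up to 6 such calls per list by p; other list members are named with their values where they ran against the list, defined it or missed the threshold. The members and lists were chosen with earlier results of these data known. Lists were described by counts and medians and not tested.

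Alternatives were a filter at a mean of 6, centring, repeated quantile normalization, the mean over rows, every row, only the 6 PBS arrays, each array left out, CD4 PBS 3 and nTreg PBS 1 left out together, fixed and random replicate blocks, weights per array, robust moderation with a variance trend, no moderation, and an adjusted p of 0.01.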

Additional observations from a re-analysis of the deposited data

Results flagged for a closer look

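The population difference itself differed between AzaC and PBS at 11 of the 123 genes named, by limma's interaction term. Of all genes, 0.203% had a called interaction. The named genes were chosen mainly for their PBS difference, which is part of the interaction, so the count of 11 describes and does not test. Of the genes with a larger value toward nTregs under AzaC, Plagl1 changed by 1.92 (from 0.89 without drug to 2.81, adjusted p = 0.000268), Enah by 1.20 (2.40 to 3.60) and Cd86 by 1.10 (0.89 to 1.99). Il7r went from −0.66 to 0.53, a change of 1.20, Cxcr6 from −0.71 to 0.56, a change of 1.28, and Scd1 from −0.89 to 0.34, a change of 1.23. Atp8b4 changed by 1.99 and Slc16a5 by 1.03, both with a smaller deficit in nTregs under AzaC. In the other direction, Cd80 changed by −1.69, Cdkn1a by −1.62 and Muc3a by −1.45 (3.21 to 1.76). The calls of Plagl1, Cdkn1a, Il7r, Cd80, Atp8b4 and Enah held without each of the 12 arrays in turn. Those of Scd1, Cxcr6, Cd86, Slc16a5 and Muc3a were lost without 7, 8, 9, 11 and 10 of the 12 arrays.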

How the results depend on the processing

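Of the 123 named genes, 106 kept their direction and side of the threshold in the 11 settings that their choice did not use; the other 6, without 1 PBS array each, were part of that choice. No called gene among the 123 changed sign. Several list medians near 0 changed sign, and those given here are examples. Without nTreg PBS 1 those of the NF-kB (−0.11 to 0.03), STAT and SOCS (−0.12 to 0.01) and glycolysis lists (−0.09 to 0.02) turned. So did those of the adenosine (−0.11 to 0.03) and amino acid lists (−0.03 to 0.04). Centring turned those of the effector lineage factors (0.06 to −0.03), chemokine ligands (0.07 to −0.02) and TNF ligands (0.05 to −0.04). It also turned those of the apoptosis (0.02 to −0.06) and B cell lists (0.04 to −0.05). Without CD4 PBS 3 the TGF-beta median turned (−0.06 to 0.07). With only the 6 PBS arrays fitted, 648 genes were called, 371 higher and 277 lower; without moderation 1120 (572 and 548); at an adjusted p of 0.01, 713 (391 and 322). Over every row of the table, 423 rows were called at 2-fold or more. With arrays centred, 1415 genes were lower. Without CD4 PBS 3 and nTreg PBS 1 together, 576 were lower. Leaving out 1 array gave 1042 to 1862 calls, 565 to 849 higher and 477 to 1076 lower. The split moved little under quantile normalization (842 higher, 739 lower) and array weights (1283, 1245), and was 957 and 1109 with the dim filter.

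The count of called interactions was 45 in the reported fit, 80 with the dim filter, 89 with centring, 77 without the same 2 arrays, 401 with array weights, 6 without moderation, and 9 to 69 without 1 array. Same-numbered PBS arrays correlated at 0.04, 0.03 and 0.02 in their deviations from the group means, so the numbers were not taken as pairs, although each array correlated best with its own number. With the replicate number as a fixed block, 1726 genes were called (812 higher, 914 lower), 1492 of them shared with the reported fit, and 28 interactions; a random replicate block gave 1935 (correlation 0.0434). The causes of these shifts were not tested. Signals near background bound sizes: 99 of the 279 calls of 2-fold or more had the lower group mean under 7.10, and 16 had both.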
